A study of Homo sapiens with 6 samples.

Results

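The 10 genes that encode the receptors for PDGF, FGF, HGF, KIT ligand, IGF and insulin were followed in 4 human cell lines. The lines come from atypical teratoid rhabdoid tumor (AT/RT), a malignant embryonal tumor of the brain. It is most often diagnosed by loss of the chromatin remodeling subunit SMARCB1. The genes were chosen by symbol (PDGFRA, PDGFRB, KIT, FGFR1, FGFR2, FGFR3, FGFR4, MET, IGF1R and INSR), and they are 10 of the 36532 genes in the transcript data. Their level is the sum of the TPM (transcript abundance scaled by transcript length and library size) over all transcripts of a gene, 148 transcripts in all. The lines are named CHLA 02, CHLA 04, CHLA 05 and, as the last, CHLA 06. They were left untreated and were all grown in medium that held EGF at 20 ng/mL, basic FGF at 20 ng/mL and B-27 supplement at 2%, so a ligand of the FGF receptors was supplied to every culture. CHLA 02 and CHLA 05 gave 1 library each, and CHLA 04 and CHLA 06 gave 2 technical replicates each. Each line is therefore 1 biological sample, the spread between cultures was not measured, and no test was made between lines.

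Receptor tyrosine kinases sit in the plasma membrane, bind a growth factor outside the cell and pair up, after which their kinase domains phosphorylate each other and recruit adaptors that feed the RAS and PI3K pathways. PDGFRA, PDGFRB and KIT belong to one structural family, the FGF receptors form a second, MET is the receptor for HGF (hepatocyte growth factor), and IGF1R and INSR form disulfide-linked dimers for IGF and insulin. In the developing brain FGFR1 to FGFR3 and IGF1R are used by neural progenitors, PDGFRA marks oligodendrocyte precursors, and PDGFRB is best known from pericytes.

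Depth was between 10265899 and 20520229 reads on transcripts, so that a single read on 1000 bp of transcript counted for 0.117 to 0.236 TPM. The labels of the lines were checked against 18 marker genes. SMARCB1 transcripts were present at 13.5 to 26.2 TPM in all 6 libraries, which goes against an absence of the transcript. Whether these transcripts carry a deletion or mutation cannot be read from TPM values, so the level does not check the label. PTPRC (leukocytes), PECAM1 and CDH5 (endothelium) were at or near 0, with a highest value of 0.224 TPM. Over the marker list 6 of the 15 genes that reached 1 TPM differed 4-fold or more between lines (40%), against 20.9% of all genes. The summed level was 14891 TPM in CHLA 02, 5747 and 6380 TPM in CHLA 04, and 9427 TPM in CHLA 05. In CHLA 06 it was 21287 and 16217 TPM. VIM made up most of the sum in every library, with 13742 TPM in CHLA 02 and 19464 and 14708 TPM in CHLA 06. NES was at 5.21 to 27.6 TPM, SMARCA4 at 104 to 342 TPM, SOX2 at 4.03 TPM or less and RBFOX3 at 1.11 TPM or less. In such bulk samples, fewer cells with a transcript and less of it per cell cannot be told apart.

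The receptors differed widely between the lines. Between the highest and the lowest line, 8 of 10 receptors differed 4-fold or more on TPM + 1, against 20.9% of the 16035 genes that reached 1 TPM in a line. The exceptions were FGFR4 and INSR. The median receptor had a log2 range of 3.36 over the 4 lines, and the median gene had 1.02. MET had a log2 range of 8.16, which placed it at the 99.7th percentile of all genes, and FGFR2 followed with 6.77 at the 98.9th percentile. In the 37 other receptor tyrosine kinase genes that reached 1 TPM, 19 passed 4-fold, with a median log2 range of 2.15.

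**Figure D1:**
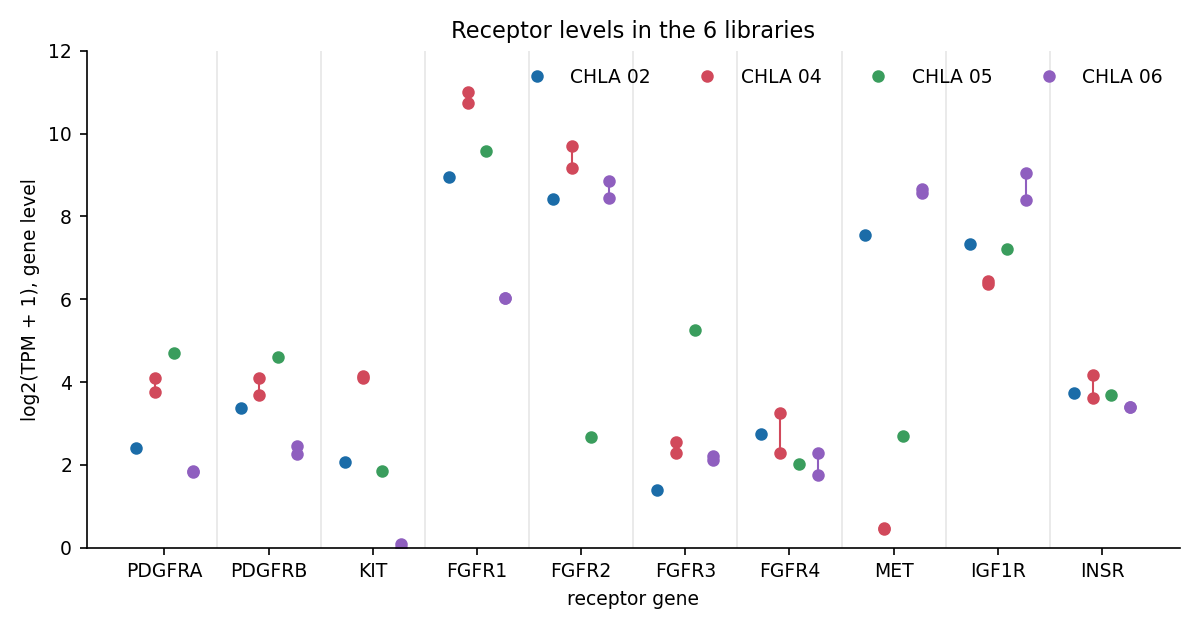
Level of the 10 receptor genes as log2(TPM + 1), with 1 point per library and a line joining the technical replicates of CHLA 04 and CHLA 06. FGFR1 was highest in CHLA 04 and lowest in CHLA 06, MET was highest in CHLA 06 and lowest in CHLA 04, and the points of FGFR4 and INSR lie close together.

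**Figure D2:**
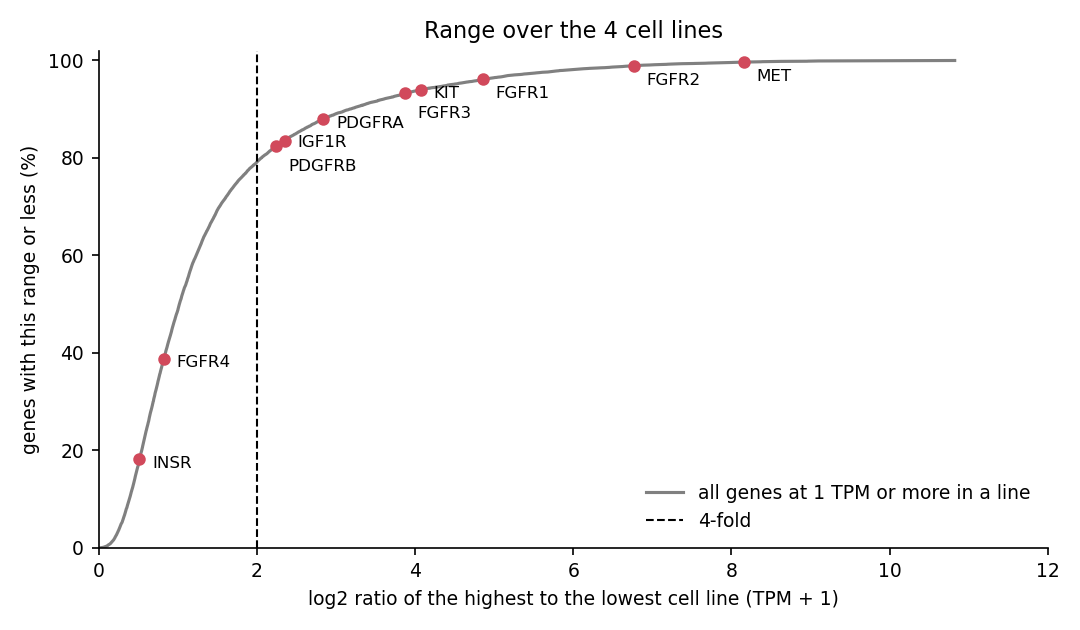
Log2 ratio of the highest to the lowest cell line on TPM + 1 (x axis) against the percentage of all genes with that range or less (y axis). The grey curve is all genes at 1 TPM or more in a line, red points are the receptors and the dashed line marks 4-fold. INSR and FGFR4 lie left of the dashed line, at the 18.2nd and 38.8th percentile, and the other 8 receptors lie right of it.

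FGFR1 was the leading receptor of 3 lines when all transcripts were counted, and CHLA 06 had others. Summed over the 10 genes, the receptor level was 1215 TPM in CHLA 02, 3043 and 2441 TPM in CHLA 04, 1020 TPM in CHLA 05, and 1484 and 1157 TPM in CHLA 06. FGFR1 and FGFR2 together with MET and IGF1R made up most of it in every library. FGFR1 took 40.5% of the sum in CHLA 02, 67.5% and 70.5% in CHLA 04 and 74.4% in CHLA 05, but 4.32% and 5.54% in CHLA 06. In CHLA 06 the sum was shared by IGF1R (35.9% and 29.2%), FGFR2 (30.9% and 30.3%) and MET (27.4% and 32.9%). Among 58 receptor tyrosine kinase genes, FGFR1 ranked first in CHLA 02, CHLA 04 and CHLA 05 and 11th in CHLA 06, where IGF1R ranked first. These ranks changed when only coding transcripts were counted. FGFR1 was then 8th in CHLA 02, 3rd in CHLA 04 and CHLA 05 and 15th in CHLA 06, with FGFR2 first in CHLA 02 and CHLA 04 and MET first in CHLA 06, where IGF1R was 4th.

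FGFR1, a receptor for basic FGF, lies at chr8:38411138-38468834 (GRCh38, minus strand). Its level was 493 TPM in CHLA 02, 2054 and 1720.0 TPM in CHLA 04, 759 TPM in CHLA 05, and 64.1 TPM in both libraries of CHLA 06. The order was CHLA 04, CHLA 05, CHLA 02 and CHLA 06, and no libraries of different lines overlapped. CHLA 04 stood 29.4-fold above CHLA 06 in TPM. From the reads alone the ratio was 28.9, with an exact 95% interval of 27.7 to 30.1 that covers counting error only, as do all intervals given here.

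Much of the FGFR1 signal lay on transcripts that are not annotated as coding. Retained-intron transcripts held 66.4% of FGFR1 reads in CHLA 02, 69.4% and 68.1% in CHLA 04 and 69.1% in CHLA 05, and 49.7% and 48.3% in CHLA 06. The transcript with the most reads, ENST00000526570, is one of these. With coding transcripts alone, FGFR1 was at 85.0 TPM in CHLA 02, 285 and 197 TPM in CHLA 04, 143 TPM in CHLA 05 and 18.9 and 22.0 TPM in CHLA 06. The order of the lines was kept, but the level in CHLA 04 was 241 TPM in place of 1887 TPM, and coding FGFR2 was then above coding FGFR1 in CHLA 02 and CHLA 04 as well as in CHLA 06. In CHLA 02, coding MET (186 TPM) and coding IGF1R (115 TPM) were also above coding FGFR1. The log2 ratio of FGFR1 in CHLA 04 over CHLA 05 was 1.31 with all transcripts and 0.75, below 2-fold, with coding ones. For FGFR2 coding transcripts held 84.0% to 93.2% of reads.

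FGFR2, a receptor for FGFs of epithelial and neural tissue, showed a different pattern, with 1 line far below the others. Its level was 339 TPM in CHLA 02, 828 and 574 TPM in CHLA 04, 5.43 TPM in CHLA 05, and 459 and 350.3 TPM in CHLA 06. CHLA 05 lay apart from all other libraries, and its 97 reads compare with 6271 in CHLA 02. CHLA 04 was 129-fold above CHLA 05 in TPM, and 112-fold in reads (91.6 to 138). CHLA 06 and CHLA 02, which are neighbours in this order, differed 1.19-fold, less than the 1.44-fold between the technical replicates of CHLA 04. FGFR1 was 140-fold above FGFR2 in CHLA 05 on the TPM scale, but FGFR2 was 7.16-fold and 5.47-fold above FGFR1 in CHLA 06. On coding transcripts FGFR1 was 29.7-fold above FGFR2 in CHLA 05, and FGFR2 was 21.3-fold and 14.3-fold above FGFR1 in CHLA 06.

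FGFR1 to FGFR3 each come in a IIIb and a IIIc form, made by choosing 1 of 2 exons for the last part of the immunoglobulin-like domain nearest to the membrane. This choice sets which FGFs bind, and basic FGF acts mainly on the IIIc forms. Exons behind this choice are shown here from GRCh38, 5′ to 3′ on the strand of the gene. They are the pair of FGFR3, which was highest in CHLA 05, and the IIIb exon of FGFR2. The share of reads assigned to the FGFR2 IIIb form was higher in that line, on few reads. The IIIb exon of FGFR3 lies at chr4:1802914-1803064 (plus strand, 151 bases), its IIIc exon at chr4:1803692-1803836 (plus strand, 145 bases), and the IIIb exon of FGFR2 at chr10:121518682-121518829 (minus strand, 148 bases). In the FGFR3 exons, capitals mark a longest run of bases that both share. In the FGFR2 exon they mark a longest run shared with the IIIb exon of FGFR3. Each is 7 bases, and other shared runs of this length are not marked.
FGFR3 IIIb exon: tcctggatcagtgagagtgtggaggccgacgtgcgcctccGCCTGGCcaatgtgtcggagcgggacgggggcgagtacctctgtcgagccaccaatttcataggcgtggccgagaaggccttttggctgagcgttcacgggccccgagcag
FGFR3 IIIc exon: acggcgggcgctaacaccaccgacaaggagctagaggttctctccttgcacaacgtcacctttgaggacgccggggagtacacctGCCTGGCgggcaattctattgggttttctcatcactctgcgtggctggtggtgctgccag
FGFR2 IIIb exon: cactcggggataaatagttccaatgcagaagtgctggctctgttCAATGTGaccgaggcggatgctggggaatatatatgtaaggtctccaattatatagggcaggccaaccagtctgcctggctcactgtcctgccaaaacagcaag
The IIIb and IIIc exons of FGFR3 were 47.7% identical by edit distance, and the IIIb exons of FGFR2 and FGFR3 were 55.0% identical. The same measure was not taken for unrelated sequences, so these values alone do not show relatedness.

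The reads that the authors' mapping assigned to transcripts with only 1 of the exons were compared. Reads from shared exons are split among transcripts by the mapping software, so the shares describe the assignment and not reads across the exons themselves. For FGFR2, transcripts with the IIIb exon shown above held 15.1% of the reads in CHLA 02 (Wilson 95% interval 14.0 to 16.3, of 3510 reads). They held 12.5% (11.6 to 13.5) and 9.85% (9.07 to 10.7) in CHLA 04 and 11.8% (10.9 to 12.9) and 11.4% (10.4 to 12.5) in CHLA 06. Transcripts with both exons or with neither were left out. They held 889 and 1872 of 6271 FGFR2 reads in CHLA 02, and 946 and 4498 of 9540 in the first replicate of CHLA 06. Among the reads compared, the IIIc form was the larger one in every library. In CHLA 05, with 69 such reads, the IIIb share was 36.2% with an interval of 25.9 to 48.0 that lay above those of the other libraries. The interval leaves out error in splitting reads among transcripts. For FGFR3 in CHLA 05 the IIIb share was 6.94% (5.04 to 9.50) of 504 reads. The other libraries had 19 to 65 such reads for FGFR3, and their shares of 12.5% to 25.0% had wide intervals. For FGFR1 the IIIb share was 0.277% to 0.761% in CHLA 02, CHLA 04 and CHLA 05, and 3.59% and 3.23% in CHLA 06. Only 1 FGFR1 transcript has the IIIb exon alone, and 11 have the IIIc exon alone. The left-out FGFR1 transcript with both exons held 529 reads in CHLA 02, against 35 on the IIIb transcript. In CHLA 06 it held 36 and 43 reads, against 25 and 24. For FGFR3 in CHLA 05 these numbers were 131 and 35. The shares of both genes therefore depend on leaving out these reads.

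**Figure D3:**
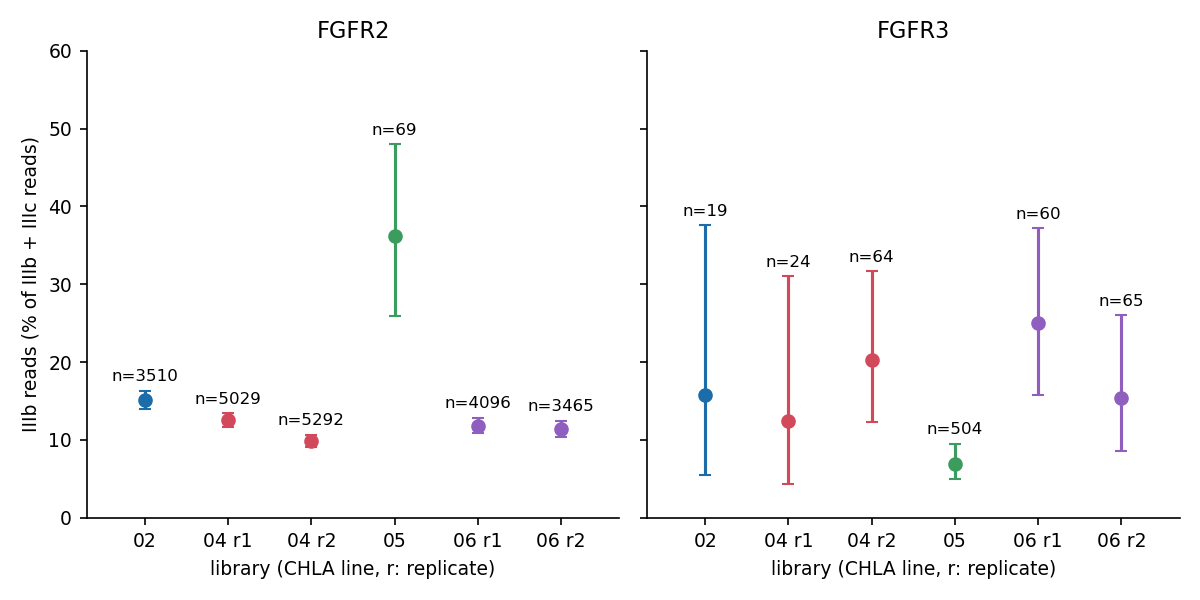
Share of IIIb reads among reads assigned to IIIb or IIIc transcripts (y axis, percent) for FGFR2 (left) and FGFR3 (right) in each library, with Wilson 95% intervals and the number of reads above each point. The share for FGFR2 was 9.85% to 15.1% in all libraries but that of CHLA 05, at 36.2%.

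FGFR3, at chr4:1793307-1808872 (plus strand), was highest in the line with the least FGFR2. It was at 1.61 TPM in CHLA 02, 3.91 and 4.85 TPM in CHLA 04, 37.4 TPM in CHLA 05, and 3.34 and 3.65 TPM in CHLA 06. CHLA 05 stood 8.55-fold above CHLA 04 in TPM (reads 8.96-fold, 7.50 to 10.8), and the libraries of CHLA 04 and CHLA 06 could not be separated by their reads (ratio 1.001, 0.804 to 1.24). FGFR4, the FGF receptor of liver and muscle, was low everywhere, from 2.36 to 8.60 TPM. Its technical replicates differed 1.97-fold in CHLA 04, more than any of its neighbouring lines did.

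Of 18 secreted FGF ligands, 6 reached 1 TPM and none passed 4-fold between lines, against 20.9% of all genes. Of the 6, all but FGF2 and FGF17 had line means of 2.15 TPM or less, which cannot reach 4-fold on TPM + 1. For those genes the outcome was fixed by their low level. Only FGF2, which encodes basic FGF, reached 5 TPM, at 57.6 TPM in CHLA 02, 23.8 and 56.8 TPM in CHLA 04, 40.9 TPM in CHLA 05 and 53.6 and 68.1 TPM in CHLA 06. The technical replicates of CHLA 04 thus differed by more than the means of the lines did. FGF17 was next, with 4.92 TPM in CHLA 05, and 5 FGF ligands had no read in any library. Of 4 intracellular FGF homologues, which do not signal through the receptors, FGF12 and FGF13 passed 4-fold and were highest in CHLA 04, at 7.24 and 7.49 TPM and at 6.75 and 5.68 TPM. FGF11 was at 2.53 to 9.09 TPM.

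MET, at chr7:116672390-116798386 (plus strand), had the widest range of the receptors. Its level was 187 TPM in CHLA 02, 0.379 and 0.383 TPM in CHLA 04, 5.45 TPM in CHLA 05, and 407 and 381 TPM in CHLA 06. CHLA 02 and CHLA 06 formed the high pair, and CHLA 04 rested on 2 and 7 reads. In reads CHLA 06 was 3074-fold above CHLA 04, with an interval of 1619 to 6724 that reflects the 9 reads of CHLA 04. CHLA 06 was also 2.08-fold (2.03 to 2.13) above CHLA 02. MET ranked 3rd among the receptor tyrosine kinases in CHLA 06 and 43rd in CHLA 04. In CHLA 02 and CHLA 06 over 98% of its reads lay on 1 coding transcript, ENST00000397752.

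Several genes that act with MET were high and low in the same lines. HGF, its only known ligand, was at 313 TPM in CHLA 02, 0 and 0.024 TPM in CHLA 04, 1.19 TPM in CHLA 05, and 522 and 408 TPM in CHLA 06. Receptor and ligand were thus both high in CHLA 02 and CHLA 06, and HGF had 1 read in the libraries of CHLA 04 together. The inhibitors of the proteases that activate HGF were high in the same lines. SPINT2 was at 79.7 TPM in CHLA 02, 1.31 and 0.161 TPM in CHLA 04, 0.897 TPM in CHLA 05 and 160.1 and 143 TPM in CHLA 06, and SPINT1 was at 8.73 to 12.9 TPM in CHLA 02 and CHLA 06 and below 0.1 TPM in the other libraries. HGFAC, the secreted HGF activator, had the opposite order, at 1.42 TPM in CHLA 02, 10.8 and 8.98 TPM in CHLA 04, 6.16 TPM in CHLA 05 and 0.196 and 0.440 TPM in CHLA 06. The membrane proteases hepsin (HPN) and matriptase (ST14) stayed below 0.15 TPM. SDC4, a heparan sulfate proteoglycan, was at 86.1 TPM in CHLA 02, 0.362 and 0.166 TPM in CHLA 04, 2.23 TPM in CHLA 05, and 143 and 146 TPM in CHLA 06. COL1A1, a marker of fibroblasts and mesenchymal cells, moved with these genes, at 387 TPM in CHLA 02, 2.76 and 0.679 TPM in CHLA 04, 11.5 TPM in CHLA 05 and 600.3 and 459 TPM in CHLA 06. Of the other mesenchymal markers, COL1A2 reached 7.12 TPM in CHLA 05 and was below 1.4 TPM elsewhere. ACTA2 was at 541 TPM in CHLA 02, 676 and 1036 TPM in CHLA 04, and 495 TPM in CHLA 05. In CHLA 06 it was at 1081 and 886 TPM, so ACTA2 did not have the order of MET. LUM had the order of MET at a low level, with 0.636 TPM in CHLA 02, 0 TPM in CHLA 04, 0.155 TPM in CHLA 05 and 1.67 and 0.896 TPM in CHLA 06. VIM also had this order, with 13742 TPM in CHLA 02, 4629 and 4990 TPM in CHLA 04, 8430 TPM in CHLA 05 and 19464 and 14708 TPM in CHLA 06. The epithelial marker EPCAM was at 2.47 TPM in CHLA 02, 0 TPM in CHLA 04, 0.215 TPM in CHLA 05 and 2.52 and 2.60 TPM in CHLA 06. The part of the cell types that these genes mark in the MET pattern was not tested.

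KIT, the receptor of stem cell factor at chr4:54657918-54740715 (plus strand), was highest in CHLA 04. It was at 3.19 TPM in CHLA 02, 16.8 and 16.0 TPM in CHLA 04, 2.64 TPM in CHLA 05, and 0.0621 and 0 TPM in CHLA 06. Both libraries of CHLA 04 were above all others, and CHLA 06 had 2 reads in 1 library and none in the other. For the library with no read, 3 reads on the longest transcript would amount to 0.0677 TPM. CHLA 04 was 5.55-fold (4.43 to 7.02) above CHLA 02 in reads, and 567-fold above CHLA 06 with the wide interval of 156 to 4687. CHLA 02 and CHLA 05 could not be separated (1.03, 0.750 to 1.41). Its ligand gene KITLG was lowest in the line with the most KIT. KITLG was at 89.1 TPM in CHLA 02, 8.18 and 15.1 TPM in CHLA 04, 82.3 TPM in CHLA 05, and 88.8 and 85.6 TPM in CHLA 06.

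PDGFRA (chr4:54229097-54298247, plus strand) and PDGFRB (chr5:150113837-150155872, minus strand) had the same order of lines, with CHLA 05 highest and CHLA 06 lowest. PDGFRA was at 4.30 TPM in CHLA 02, 16.2 and 12.6 TPM in CHLA 04, 24.9 TPM in CHLA 05, and 2.65 and 2.57 TPM in CHLA 06. PDGFRB was at 9.41 TPM in CHLA 02, 16.1 and 11.9 TPM in CHLA 04, 23.4 TPM in CHLA 05, and 4.45 and 3.85 TPM in CHLA 06. No libraries of different lines overlapped for either gene. Under quantile normalization the log2 range of PDGFRB over the lines was 1.91, below 4-fold. CHLA 05 stood above CHLA 06 in reads 10.4-fold (8.93 to 12.1) for PDGFRA and 6.21-fold (5.38 to 7.19) for PDGFRB. The receptors were near equal in CHLA 04 and CHLA 05, with PDGFRA at 1.003, 1.06 and 1.07 times PDGFRB on the TPM scale, and PDGFRA was the lower one in CHLA 02 and CHLA 06 (0.457, 0.594 and 0.669 times).

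The PDGF ligands were highest in CHLA 05 too. PDGFA was at 2.65 TPM in CHLA 02, 8.19 and 8.71 TPM in CHLA 04, 31.0 TPM in CHLA 05, and 0.112 and 0.230 TPM in CHLA 06. Its order was that of the receptors. PDGFC, which binds PDGFRA after cleavage, was at 38.5 TPM in CHLA 05 and at 10.8 to 25.2 TPM elsewhere. PDGFD, a ligand of PDGFRB, was at 14.7 TPM in CHLA 05, 5.21 to 6.02 TPM in CHLA 02 and CHLA 04, and 0.130 and 0.031 TPM in CHLA 06. Of the 4 PDGF ligand genes, 3 passed 4-fold over the lines, against 20.9% of all genes, and PDGFC was the exception. NRP1, a co-receptor that also takes part in PDGF signaling, was at 45.8 TPM in CHLA 05 and 4.71 to 16.9 TPM elsewhere. The pericyte marker RGS5 varied little, from 8.05 to 15.8 TPM, while CSPG4, a marker of pericytes and oligodendrocyte precursors, was at 42.6 TPM in CHLA 05 against 1.78 to 3.81 TPM elsewhere, and OLIG2 was at 14.2 TPM in CHLA 05 against 1.54 TPM or less. The astrocyte marker GFAP had the order of both receptors, with 23.9 TPM in CHLA 02, 45.3 and 47.9 TPM in CHLA 04, 151 TPM in CHLA 05, and 0.042 and 0.038 TPM in CHLA 06. Their part in the PDGF receptor levels was not tested.

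IGF1R, at chr15:98648971-98964530 (plus strand), was expressed in all lines and highest in CHLA 06. It was at 159.7 TPM in CHLA 02, 82.1 and 86.6 TPM in CHLA 04, 147 TPM in CHLA 05, and 532 and 338 TPM in CHLA 06. All libraries of CHLA 06 were above those of the other lines, but its technical replicates differed 1.57-fold. Without the first replicate of CHLA 06 the log2 range over the lines was 1.99, just below 4-fold. Coding transcripts alone gave lower levels in the same order of lines, at 115 TPM in CHLA 02, 42.7 and 50.8 TPM in CHLA 04, 103 TPM in CHLA 05, and 350.3 and 239.9 TPM in CHLA 06. CHLA 02 and CHLA 05 differed 1.09-fold, less than the replicates of CHLA 06. INSR, the insulin receptor at chr19:7112255-7294034 (minus strand), was the steadiest receptor, between 9.51 and 17.0 TPM in all libraries, and each step in its order of lines was within the 1.47-fold between the technical replicates of CHLA 04. IGF1R was 4.84-fold to 13.0-fold above INSR in CHLA 02, CHLA 04 and CHLA 05, and 56.0-fold and 35.3-fold in CHLA 06. INSR reads lay mainly on ENST00000341500, which lacks the alternative exon of 36 bases, with 88.0% to 92.4% of reads. This transcript also has a longer 3′ end, so the share does not measure the exon by itself.

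Ligands for these receptors were scarce. IGF2 reached 1.99 TPM in CHLA 05, IGF1 stayed below 0.2 TPM, and INS had no read. B-27 supplement contains insulin. The IGF binding proteins, which hold IGF outside the cell, passed 4-fold in 5 of 6 genes at 1 TPM or more, against 20.9% of all genes. IGFBP2 was at 87.0 TPM in CHLA 02, 519 and 414 TPM in CHLA 04, 856 TPM in CHLA 05, and 17.0 and 18.6 TPM in CHLA 06. IGFBP4 and IGFBP5 were likewise highest in CHLA 05, at 55.1 and 109 TPM, and lowest in CHLA 06, at 1.60 TPM or less. The technical replicates of CHLA 04 were far apart for IGFBP5, at 60.8 and 16.3 TPM. IGFBP6 had the opposite pattern, at 135 TPM in CHLA 02 and 122 and 212 TPM in CHLA 06, and at 1.34 TPM or less in the other lines. IGFBP3 was at 5.65 and 5.13 TPM in CHLA 06. The line with the most IGF1R therefore had the lowest IGFBP2, IGFBP4 and IGFBP5.

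Of 11 genes for adaptors, which carry the signal inward, that reached 1 TPM, 1 passed 4-fold (9.09%), against 20.9% of all genes. This was IRS2, a docking protein of IGF1R and INSR, at 32.2 TPM in CHLA 02, 104 and 63.6 TPM in CHLA 04, 126 TPM in CHLA 05, and 0.048 and 0.158 TPM in CHLA 06. IRS1 was low in CHLA 06, at 5.13 and 3.86 TPM, and in CHLA 02, at 5.42 TPM. In CHLA 04 and CHLA 05 it was at 11.7 to 19.2 TPM, and IRS4 had no read. The docking protein of the FGF receptors, FRS2, was at 64.6 to 110.5 TPM, GAB1, which binds MET, at 12.1 to 28.1 TPM, and SHC1 at 512 to 903 TPM. The other adaptors were at 4.37 to 10.3 TPM (FRS3), 87.8 to 112 TPM (GRB2), 85.2 to 125 TPM (PTPN11), up to 76.4 TPM (SOS1), 10.7 to 32.2 TPM (PIK3R1) and 78.9 to 262 TPM (PLCG1). Among 6 negative regulators, GRB10 and SH2B3 passed 4-fold (33.3%), against 20.9% of all genes. GRB10, which binds IGF1R and INSR, was at 29.4 TPM in CHLA 05 and 0.679 and 0.769 TPM in CHLA 06, and SH2B3, which restrains KIT, was at 35.7 TPM in CHLA 02 and 3.60 and 5.56 TPM in CHLA 04. The ubiquitin ligases CBL and CBLB were at 49.6 to 86.8 TPM and 8.09 to 19.6 TPM, and LRIG1 was at 3.10 to 13.2 TPM.

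Of 13 co-receptors and heparan sulfate carriers that reached 1 TPM, 8 passed 4-fold, against 20.9% of all genes. GPC3 was at 478 TPM in CHLA 02, 323 and 265 TPM in CHLA 04, 28.6 TPM in CHLA 05, and 2.14 and 1.40 TPM in CHLA 06. GPC4 was at 71.8 and 76.7 TPM in CHLA 04 and 0.208 and 0.212 TPM in CHLA 06, and SDC2 at 167 TPM in CHLA 05 and 0.790 and 0.557 TPM in CHLA 06. The share of all genes with their lowest mean in CHLA 06 was not counted, so the following count is a description only. Of the 10 syndecan and glypican genes, surface proteoglycans that help FGFs to bind, 8 had their lowest mean in CHLA 06. The exceptions were SDC4, lowest in CHLA 04 and highest in CHLA 06, and SDC1, at 9.50 TPM in CHLA 02, 39.6 and 46.2 TPM in CHLA 04, 110.1 TPM in CHLA 05 and 14.9 and 22.5 TPM in CHLA 06. SDC3 (41.5 to 143 TPM), GPC1 (17.3 to 67.7 TPM), GPC2 (1.68 to 66.9 TPM) and GPC6 (0.018 to 35.9 TPM) make up the rest of those at 5 TPM or more. KL and KLB, the co-receptors for endocrine FGFs, were at or near 0. FGFRL1, an FGF receptor without a kinase domain, was at 11.7 to 34.3 TPM, and IGF2R, which clears IGF2, at 49.3 to 75.8 TPM.

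**Figure D4:**
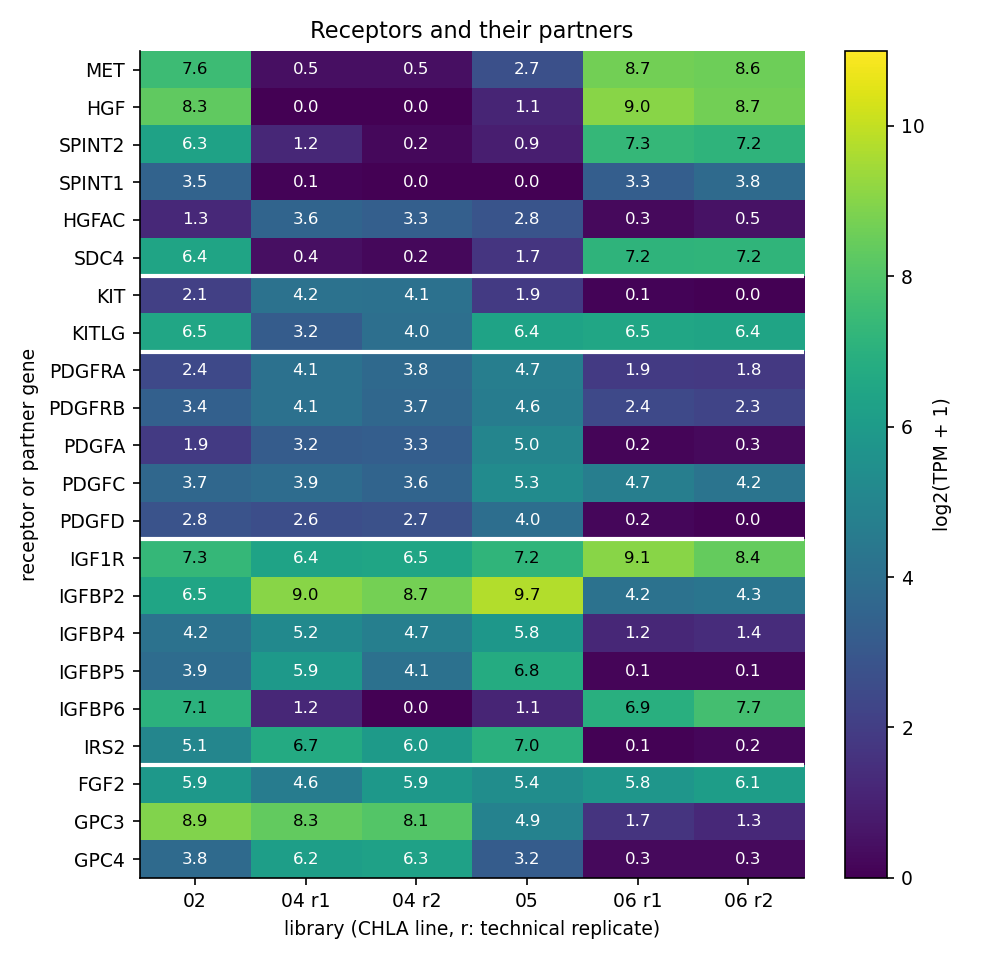
Log2(TPM + 1) of receptors and partner genes (rows) in each library (columns, r for technical replicate), grouped from the top as MET, KIT, PDGF, IGF and FGF genes. HGF, SPINT2, SDC4 and IGFBP6 are bright with MET in CHLA 02 and CHLA 06, and KITLG is darkest in CHLA 04, where KIT is highest.

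Each pair of lines was then compared on TPM + 1, counting genes that differed 2-fold or more among those at 1 TPM or more in either line. CHLA 02 and CHLA 06 were the most alike pair over all genes, with 13.6% past 2-fold, yet 5 of 10 receptors passed. Of these FGFR1, KIT and PDGFRB were higher in CHLA 02, and MET and IGF1R were higher in CHLA 06. PDGFRB was at the limit, with a log2 ratio of 1.02. Between CHLA 02 and CHLA 04, 6 receptors passed against 22.8% of all genes, with MET higher in CHLA 02 and PDGFRA, KIT, FGFR1, FGFR2 and FGFR3 higher in CHLA 04. FGFR2 and FGFR3 were at the limit here, each with a log2 ratio of -1.04. Between CHLA 02 and CHLA 05, 5 passed against 25.7%, with FGFR2 and MET higher in CHLA 02 and PDGFRA, PDGFRB and FGFR3 higher in CHLA 05.

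CHLA 04 and CHLA 05 differed in 5 receptors, against 22.9% of genes. KIT, FGFR1 and FGFR2 were higher in CHLA 04, and FGFR3 and MET were higher in CHLA 05. CHLA 04 and CHLA 06 were the least alike pair over all genes, with 37.3% past 2-fold, and 6 receptors passed. PDGFRA, PDGFRB, KIT and FGFR1 were higher in CHLA 04, and MET and IGF1R were higher in CHLA 06. CHLA 05 and CHLA 06 differed in 8 receptors, against 32.7% of genes, with PDGFRA, PDGFRB, KIT, FGFR1 and FGFR3 higher in CHLA 05 and FGFR2, MET and IGF1R higher in CHLA 06. These pairs share lines, so the counts are not separate observations.

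Technical replicates give the measurement error. None of the 9 receptors that reached 1 TPM in the line passed 2-fold between replicates, in CHLA 04 (7.29% of all genes) or in CHLA 06 (1.88%). The largest differences were 0.97 on the log2 scale for FGFR4 in CHLA 04 and 0.65 for IGF1R in CHLA 06. Of 30 differences between neighbouring lines in the order of a receptor, 22 were larger than the largest technical difference of that receptor. The other 8 were all steps of FGFR4 and INSR, and 1 step each of FGFR2 (CHLA 06 and CHLA 02) and IGF1R (CHLA 02 and CHLA 05). The 22 include steps whose read ratios could not be told from 1. These were KIT between CHLA 02 and CHLA 05 (0.750 to 1.41) and FGFR3 between CHLA 04 and CHLA 06 (0.804 to 1.24). The count of 22 of 30 was not made over all genes, so it does not set the receptors apart from other genes.

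**Figure D5:**
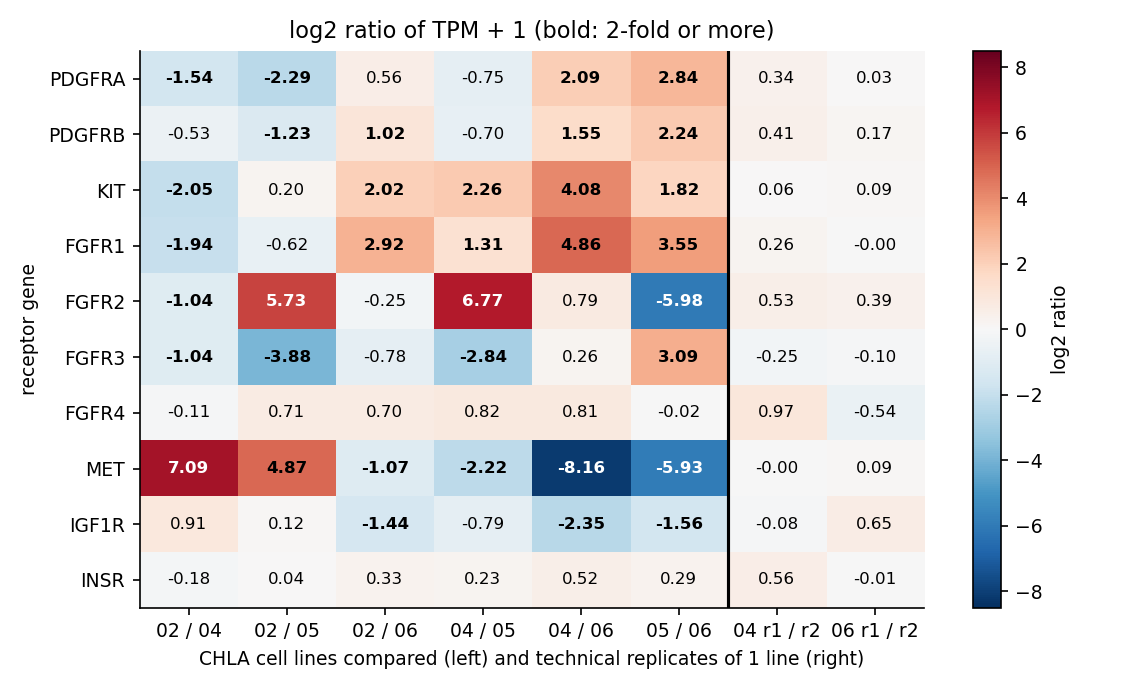
Log2 ratio of TPM + 1 for each receptor (rows) in the 6 pairs of lines (left of the black line, as first line over second) and between the technical replicates of CHLA 04 and CHLA 06 (right). Bold values are 2-fold or more, and the most extreme is MET at -8.16 in CHLA 04 over CHLA 06, while no technical ratio is bold.

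The genes most like each receptor were found by Pearson's r of log2(TPM + 1) over the 6 libraries, among 12061 genes at 10 TPM or more in a library. The libraries come from only 4 lines and share their preparation, and the number of genes with r above 0.95 is given for scale. For MET, with 730 such genes, the nearest were RHBDF2 (0.9993), LGR5 (0.9991) and ACOT11 (0.9990). LGR5, a receptor for R-spondins and a stem cell marker, was at 584 TPM in CHLA 02, 0.084 and 0.435 TPM in CHLA 04, 5.58 TPM in CHLA 05, and 1392 and 1114 TPM in CHLA 06. For FGFR1, with 801, they were SARM1 (0.9991), FGFBP3 (0.9990) and KCNN3 (0.9981). FGFBP3 encodes an FGF binding protein and was at 84.4 TPM in CHLA 02, 514 and 467 TPM in CHLA 04, 173 TPM in CHLA 05, and 3.86 and 4.28 TPM in CHLA 06.

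FGFR2 had the fewest genes of like pattern, 53, led by SLC25A20 (0.9950), IFI44L (0.9947) and PEAK1 (0.9878). For FGFR3, with 150, they were PRR5 (0.9944), RBM38 (0.9912) and GLRB (0.9896), and for IGF1R, with 168, ADAM19 (0.9965), ARHGAP32 (0.9962) and PFKFB2 (0.9947). For KIT, with 592, they were STAC2 (0.9990), ISG15 (0.9985) and TCF7L1 (0.9980). For PDGFRA, with 423, they were APBB2 (0.9996), CREB1 (0.9988) and FRMD3 (0.9978), and for PDGFRB, with 391, CTD-2201E18.3 (0.9996), FAM210B (0.9984) and NOVA1 (0.9971).

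A separate mapping of the same reads to LTR (long terminal repeat) elements of endogenous retroviruses gave another view of the receptor genes, since some elements lie within them. IGF1R spans 24 such elements, of which 12 had a read. They held 83 reads in CHLA 02, 20 and 69 reads in CHLA 04, 113 reads in CHLA 05, and 280 and 273 reads in CHLA 06. Scaled to 1e+06 LTR reads this was 624 and 567 in CHLA 06, and 56.3 to 273 in the other 3 lines. CHLA 06 was thus highest in both mappings. In MET, a MER74A element of 528 bp at chr7:116780884-116781411 held most LTR reads, with 17 reads in CHLA 02, none in CHLA 04, 1 read in CHLA 05, and 57 and 34 reads in CHLA 06. It lies in an intron of every MET transcript.

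PDGFRA spans 16 LTR elements, which together had 16 reads in CHLA 02, 23 and 44 reads in CHLA 04, 101 reads in CHLA 05, and 11 and 21 reads in CHLA 06. The most reads fell on HERV35I-int elements at chr4:54242034-54243574 and chr4:54251098-54252453, both intronic, with 25 reads each in CHLA 05. A MER41B element at chr4:54238998-54239471 had 15 reads in CHLA 05 and 8 or fewer elsewhere. In IGF1R, a MER74A element at chr15:98813111-98813685 held the most reads, 84 and 81 in CHLA 06 and 10 to 56 elsewhere. The MLT1K (chr15:98773826-98774036), MLT1A0 (chr15:98819306-98819647) and MLT1J (chr15:98888741-98889204) elements had 43 and 46, 46 and 49, and 19 and 11 reads in CHLA 06, each more than in any library of the other lines. These 4 and the MER41B element are intronic. In the same gene, a MER41A element at chr15:98890161-98890677 had 75 and 72 reads in CHLA 06 and 4 to 8 elsewhere, and it overlaps an exon of 2 minor IGF1R transcripts. INSR, with 32 elements, had 5 to 12 reads in each library, of which most fell on MLT1D (chr19:7217133-7217488) and MLT1K (chr19:7219693-7220069), both intronic, and KIT had reads only in CHLA 04, 1 and 6. The elements in FGFR1, FGFR2 and PDGFRB had 1 read between them, and FGFR3 and FGFR4 contain none. The element values were scaled over LTR reads alone and are not comparable with the gene levels.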

How the data were processed

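Total RNA of the 4 cell lines was made into stranded libraries and sequenced as paired reads of 125 bp. The authors trimmed the reads and mapped them to GRCh38 with Ensembl release 82 transcripts, and deposited TPM per transcript and, from a separate mapping, TPM per LTR element, for each library. The submitters' processing notes also name CASAVA 1.8.2, FastQC and Trimmomatic. Technical replicates were deposited apart, while the authors took the higher value per transcript in their own work.

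Gene TPM was summed over the transcripts of a gene identifier. Read numbers were derived from the step in TPM times length that 1 read makes (at least 99.6% of values whole within 0.05 reads), and this step and the fold calls were tested on simulated data. Technical replicates were averaged. Ratios were taken on TPM + 1 for genes at 1 TPM or more in a line compared, and a gene was called at 2-fold between lines or 4-fold over all lines. Intervals at 95% are exact (reads, ratios) or Wilson (shares) and cover counting error only. Since each line is 1 biological sample, no p-value was computed.

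All receptors were named, with values for genes of the partner lists that reached 5 TPM in a line, counts for the rest and for the other receptor tyrosine kinases (a departure from the rule), and the 3 genes of most similar pattern for each receptor past 4-fold. A few genes below 5 TPM (FGF17, HPN, ST14, IGF1, IGF2, INS, IRS4, KL, KLB) and LTR elements with 20 reads or more in all were also named. The receptors and lists were chosen with earlier results of these data known. Transcript classes were taken from GENCODE 44, which lists 145 of the 148 receptor transcripts. The other 3, of which 2 belong to IGF1R and 1 to FGFR3, were kept with the coding ones. Exon sequences were read from the GRCh38 genome. One exon sequence is not reported here. Python 3.11.15 was used with numpy 2.4.6, pandas 2.3.3, scipy 1.17.1 and matplotlib 3.10.9.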

Additional observations from a re-analysis of the deposited data

How the results depend on the processing

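No paired analysis was possible because no result comes from a test and the technical replicate numbers join no samples across lines. The counts of receptors past 2-fold in each pair and past 4-fold over the lines stayed within 1.5 times under all 15 alternatives, of which 1, coding transcripts alone, was chosen after seeing the data. They covered other pseudocounts and filters, size factors, quantile normalization, other summaries of transcripts and length, the higher technical replicate, and leaving out each technical replicate. With a technical replicate left out, the pairs had 4 to 8 receptors past 2-fold, and 7 or 8 passed 4-fold. Of 900 recomputed log2 ratios, 856 kept their side of 2-fold, 44 changed side and none that had passed changed sign. The changes included FGFR2, FGFR3 and IGF1R between CHLA 02 and CHLA 04 and PDGFRB between CHLA 02 and CHLA 06, all near the limit. KIT, with log2 ratios of 2.02 (CHLA 02 over CHLA 06) and 1.82 (CHLA 05 over CHLA 06), lost these calls under a filter of 5 TPM, which leaves it out of both pairs. PDGFRB fell below 4-fold over the lines under quantile normalization (log2 range 1.91), and IGF1R without the first replicate of CHLA 06 (1.99), and the cause was not tested. Over all genes the share past 4-fold was 31.9% with a pseudocount of 0.1 and 9.16% without a filter. Reads set the limit for MET in CHLA 04 and KIT in CHLA 06, and the spread between cultures is unknown.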
